A study of Mus musculus with 48 samples.

Results

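The miR-379-410 cluster is a run of microRNA (miRNA) hairpins in the distal end of the imprinted Dlk1-Dio3 domain on mouse chromosome 12. It was followed here in germ cells and somatic cells of the fetal mouse ovary, as 58 mature miRNAs from 34 hairpins among the 563 mature miRNAs of the deposited count table. The members were taken by name. A row counted if its miRNA number was on a list of 34 numbers that belong to the cluster, whichever arm it came from, and 32 of those numbers had a row; miR-544 and miR-654 were not analysed here. The members comprise 25 miRNAs from the 5p arm of a hairpin and 33 from the 3p arm. The rule uses names and no measured levels, though it was set with earlier results of these data known.

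Imprinted genes are expressed from the copy inherited from a single parent, and the noncoding RNAs of Dlk1-Dio3, this cluster included, are expressed from the maternal chromosome. The hairpins are cut from a long shared transcript, and each can yield a mature miRNA from either arm; the bases just behind the 5′ end, called the seed, do most of the target recognition. In mice the cluster is best known from placenta, embryonic tissues and brain. Primordial germ cells of the fetal gonad are the stage at which parental imprints are erased before they are set again according to the sex of the new animal.

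All animals were wild-type CD1 mice. Pregnant F0 females received in their drinking water, for the first 13 days of gestation, the DMSO vehicle alone (0.3% by volume), the phthalate metabolite MEHP in that vehicle (35 mg/kg body weight daily), or the fungicide vinclozolin (VZN) in that vehicle (50 mg/kg body weight daily). Ovaries were collected at embryonic day 13.5 from the exposed F1 fetuses, from F2 and F3 fetuses of later pregnancies without exposure, and from an additional F2 class with exposed lineage on both parental sides, called F2Sy; control lineages were sampled in the same 4 classes. Pools of about 80 gonads, freed of mesonephros, were split with anti-CD15 magnetic beads into primordial germ cells (PGC, 93 to 96% pure by staining) and ovarian somatic cells (SC, over 90% pure). Each of the 24 combinations of cell fraction, exposure and class has 2 libraries of RNA under 100 bases, 48 in all, and nothing in the labels says that the 2 libraries came from separate pools, so the tests measure a spread that may be technical.

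The total listed counts lay between 2932091 and 7946140 in the PGC libraries and between 7460018 and 11761591 in the SC libraries. The table lists no 0, and 26.2% of its cells are blank; the smallest listed count of a library was between 110 and 194, so a blank is a value that was not listed and not a measured absence. Levels below are CPM, a miRNA's count scaled to a fixed library total of listed counts, not divided by length, since a read spans a whole miRNA. The germ cell marker miRNAs (the miR-290, miR-302 and miR-183 clusters, without miR-290b and miR-292b) made up 30.7% of listed counts in control PGC and 1.24% in control SC. Somatic and mesenchymal marker miRNAs (such as miR-202, miR-199a, miR-214 and miR-143) made up 1.81% in control PGC and 23.3% in control SC. Both lists were chosen with earlier results of these data known, so these shares describe the fractions and are no independent check of them.

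The sequences below, from RefSeq (GRCm38.p6, plus strand), are those the results turn on, given 5′ to 3′ in hairpin order along the chromosome with the seed, bases 2 to 8, in capitals. They comprise the 6 most abundant members, the members with the largest and the smallest germ-to-somatic differences, both arms of miR-154, miR-369 and miR-411, and the members that share a seed.
miR-379-5p: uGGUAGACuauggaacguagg
miR-379-3p: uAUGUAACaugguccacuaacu
miR-411-5p: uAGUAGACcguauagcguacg
miR-411-3p: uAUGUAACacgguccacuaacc
miR-380-3p: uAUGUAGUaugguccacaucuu
miR-323-3p: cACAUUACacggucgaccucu
miR-329-3p: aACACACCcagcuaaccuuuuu
miR-494-5p: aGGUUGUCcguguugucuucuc
miR-1193-3p: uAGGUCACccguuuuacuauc
miR-543-3p: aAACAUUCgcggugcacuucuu
miR-376a-3p: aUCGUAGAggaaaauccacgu
miR-134-5p: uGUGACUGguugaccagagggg
miR-154-5p: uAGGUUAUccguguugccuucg
miR-154-3p: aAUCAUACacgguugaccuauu
miR-496a-3p: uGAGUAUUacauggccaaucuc
miR-541-5p: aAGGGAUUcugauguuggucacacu
miR-369-5p: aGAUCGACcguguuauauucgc
miR-369-3p: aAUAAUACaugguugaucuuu
miR-410-5p: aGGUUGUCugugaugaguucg

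A RefSeq sequence was matched to 55 of the 58 members, and these 55 carry 53 different seeds. miR-376c-3p, miR-485-5p and miR-487b-3p are named only. The seed AUGUAAC is shared by miR-379-3p and miR-411-3p, from the first and the second hairpin, whose whole sequences differ by 2 edits. The seed GGUUGUC is shared by miR-410-5p and miR-494-5p. Mature lengths ran from 19 to 25 bases with a median of 22. The first base was U in 41.8% and A in 41.8% of the members, against 41.2% and 29.1% of the 478 miRNAs of the table with a sequence, and C in 3.64% against 18.4%. Near-identical members can exchange reads in counting. The closest pair is miR-379-3p and miR-411-3p, the 2 edits apart given above. miR-300-3p and miR-381-3p are 3 edits apart, as are miR-376a-3p and miR-376b-3p, while miR-154-3p and miR-369-3p are 4 apart, as are miR-495-3p and miR-543-3p. The sources used here do not say how reads were divided between such pairs, and the values of these members carry that uncertainty.

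In control somatic cells the cluster made up 5.01% ± 0.408 (SD, n = 8) of all listed miRNA counts, with libraries from 4.51% to 5.80%. The counts were concentrated in few hairpins. miR-411 supplied 22.2% and miR-379 16.7% of the cluster's summed level, and the 6 leading hairpins (miR-411, miR-379, miR-541, miR-369, miR-376a and miR-380) together 68.8%. By position these 6 have positions 1, 2, 5, 20, 34 and 37 among the 38 hairpins that RefSeq places from miR-379 to miR-410, so both ends of the run hold abundant members.

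The most abundant mature miRNA was miR-411-5p. Its level in the 8 control SC libraries was 8393 CPM at the lowest, 10007 at the median and 11759 at the highest (mean 10052, SD 1130). miR-379-5p, from the neighbouring hairpin, had a lowest value of 6466, a median of 8318 and a highest value of 10213 CPM (mean 8201, SD 1248). These ranges overlap, yet within a library miR-411-5p was the higher in 23 of 24 SC and in 23 of 24 PGC libraries. miR-541-5p followed with a mean of 4504 CPM (SD 909), then miR-376a-3p with 3852 (SD 561) and miR-369-5p with 3319 (SD 456). The control ranges of those 3 neighbours in the order overlap. miR-541-5p exceeded miR-376a-3p in 18 of 24 SC libraries but in 5 of 24 PGC libraries, and miR-376a-3p exceeded miR-369-5p in 16 of 24 SC libraries. miR-380-3p, with 2362 CPM (SD 382.5), was below miR-369-5p in 24 of 24 libraries of either fraction. The miR-376 miRNAs are known in mouse and human as substrates of adenosine-to-inosine editing within the seed; the sources used here do not say whether edited reads were counted in their rows.

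Of the 58 members, 47 were listed in all 24 SC libraries, and their control SC means spanned 26.6 to 10052 CPM, a 378-fold range with a median of 312 CPM. The other 11 were missing from at least 1 SC library.

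**Figure D1:**
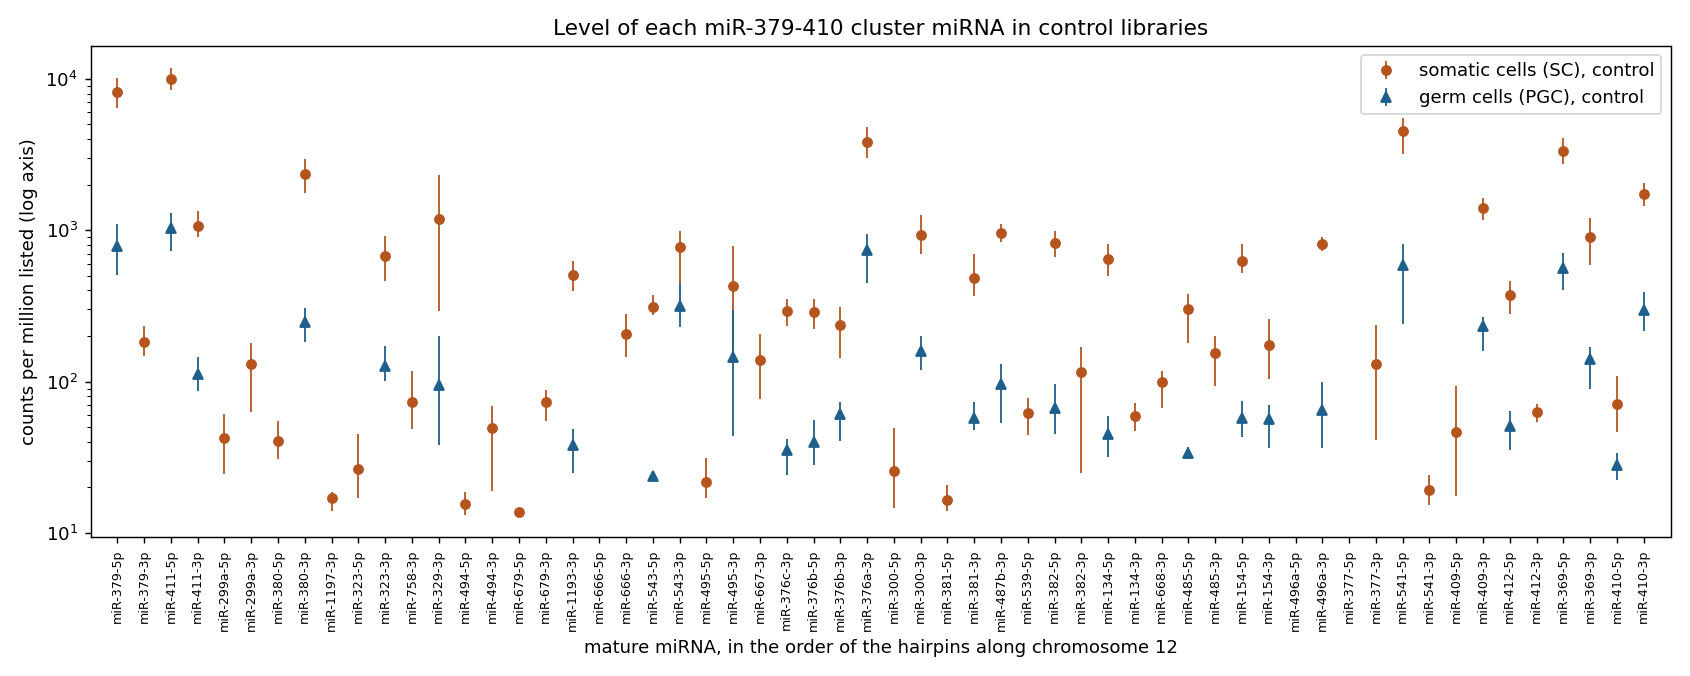
Mean level in CPM (log axis) of each cluster miRNA in the 8 control somatic (circles) and 8 control germ cell (triangles) libraries, in hairpin order from miR-379 to miR-410; bars run from the lowest to the highest library, means are over the libraries that list the miRNA, and a missing symbol means that no control library of that fraction lists it. The 22 miRNAs listed in all 48 libraries sit lower in germ cells without overlap, and miR-379-5p and miR-411-5p, the 5p arms of the first and second hairpins, are the highest in both fractions.

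Germ cells held much less of the cluster. In control PGC it made up 0.628% ± 0.102 (SD, n = 8) of listed counts, with libraries from 0.481% to 0.759%, which is 12.5% of the share in control SC, and the ranges are far apart. The corresponding shares were 0.640% ± 0.150 (SD, n = 8) in PGC and 4.97% ± 0.492 (SD, n = 8) in SC of MEHP lineages, and 0.749% ± 0.188 (SD, n = 8) and 4.88% ± 0.187 (SD, n = 8) in those of VZN lineages. In fractions measured in bulk, fewer cells that express a miRNA and less of it per cell cannot be told apart.

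The 22 members that every one of the 48 libraries lists, 7 from 5p and 15 from 3p arms, could be tested miRNA by miRNA. Being listed in every germ cell library is what let them in, so the choice leans to members with higher PGC values. It is no strict cut by level. miR-495-3p, left out with 23 of 24 PGC libraries listing it, had a PGC median of 108 CPM, against 38.3 for miR-1193-3p, which was tested. All 22 were lower in control PGC than in control SC at an adjusted p under 0.05 (edgeR's quasi-likelihood test with Benjamini-Hochberg adjustment over 251 miRNAs). In that comparison 84.1% of the miRNAs tested passed in either direction and 42.2% passed as lower in PGC. The median log2 fold change of the 22 was -2.93, with a range of -3.74 to -1.20, against a median of 0.09 over all 251. The 8 PGC and 8 SC values did not overlap for 22 of 22 members, as was so, with PGC below SC, for 38.6% of all miRNAs tested.

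Members at the far end of the range kept the smallest fraction of their somatic level. miR-134-5p, known in rat neurons for limiting dendritic spine size, ran from 31.9 to 59.2 CPM in control PGC with a median of 45.4, and from 499 to 811 CPM in control SC with a median of 603. The log2 difference was -3.74 (SE 0.22; adjusted p = 7.4e-16 by edgeR), and its PGC mean was 7.0% of its SC mean. miR-1193-3p ran from 24.8 to 48.5 CPM in PGC (median 39.1) and from 395 to 624 in SC (median 508), a log2 fold change of -3.63 (SE 0.14; adjusted p = 3.0e-19 by edgeR). miR-496a-3p ran from 36.3 to 99.2 CPM in PGC (median 64.8) and from 733 to 907 in SC (median 817), a log2 fold change of -3.61 (SE 0.20; adjusted p = 3.3e-16 by edgeR). The last of these 4, miR-329-3p, was the most variable, with 37.8 to 200.6 CPM in PGC (median 78.1), 293.3 to 2307 in SC (median 1171) and a log2 fold change of -3.52 (SE 0.41; adjusted p = 3.8e-09 by edgeR). Every PGC library lay below every SC library for each of the 4, by a small gap only for miR-329-3p.

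At the other end, miR-543-3p ran from 231 to 450.1 CPM in control PGC with a median of 307, and from 450.8 to 987 in control SC with a median of 786. The highest PGC and the lowest SC value nearly touch. The log2 difference was -1.20 (SE 0.21; adjusted p = 6.6e-06 by edgeR), and its PGC mean was 40.3% of its SC mean. miR-154-3p ran from 36.3 to 70.1 CPM in PGC (median 62.2) and from 104 to 259 in SC (median 178), a log2 fold change of -1.53 (SE 0.19; adjusted p = 1.4e-08 by edgeR). miR-376a-3p and miR-323-3p came next, with log2 fold changes of -2.29 (SE 0.18) and -2.32 (SE 0.14) and PGC means at 19.2% and 18.7% of the SC means. Between miR-154-3p at 32.6% and miR-376a-3p lies a gap, and over the 22 members the median was 12.4%.

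The most abundant members sat within the range. miR-411-5p fell from the somatic values above to between 724 and 1291 CPM in control PGC (median 1062; log2 fold change -3.20, SE 0.17). For miR-379-5p the control PGC libraries gave 507 to 1097 CPM (median 826; log2 fold change -3.29, SE 0.17). miR-541-5p gave 239.8 to 814 CPM with a median of 655 (log2 fold change -2.88, SE 0.24). Both arms of miR-411 moved together, miR-411-3p having a log2 fold change of -3.16 (SE 0.17).

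The same contrast within each exposed lineage uses libraries that the control contrast does not. In MEHP lineages 22 of 22 members were lower in PGC, where 42.6% of all miRNAs tested passed as lower and 87.3% passed in either direction, with a median log2 fold change of -2.93. In VZN lineages 22 of 22 were lower, with 42.6% and 81.3% as background and a median of -2.71. Within the controls each of the 22 was lower in PGC in all 4 generation classes. Pooling all exposures, the 24 PGC and 24 SC values did not overlap for 20 of the 22, as was so, with PGC below SC, for 30.7% of the 251 miRNAs tested; the 2 exceptions were miR-154-3p and miR-369-3p. Without the first MEHP F3 SC library, which lists miR-369-3p at 113 CPM, it was 21 of 22 against 33.5%, miR-154-3p remaining with a highest PGC value of 105 CPM and a lowest SC value of 104. The difference between lineages was itself tested. No member passed for MEHP against control, and none for VZN against control (edgeR, 0 of 22 and 0 of all 251 miRNAs in each). At an unadjusted p under 0.05 were 0 and 1 members, against 2 and 3 of the 251 miRNAs. DESeq2 called 0 members. For VZN 20 of 22 interaction estimates were positive, toward a smaller deficit in germ cells, with a median of 0.20 against -0.01 over all 251 miRNAs. The members share their libraries, so these signs are not separate observations. The smallest p was for miR-134-5p (0.61, SE 0.28, edgeR adjusted p = 0.961). The PGC-to-SC ratio of the summed somatic markers was 10.3% in VZN and 7.76% in control lineages. Its part in the interaction estimates was not tested.

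**Figure D2:**
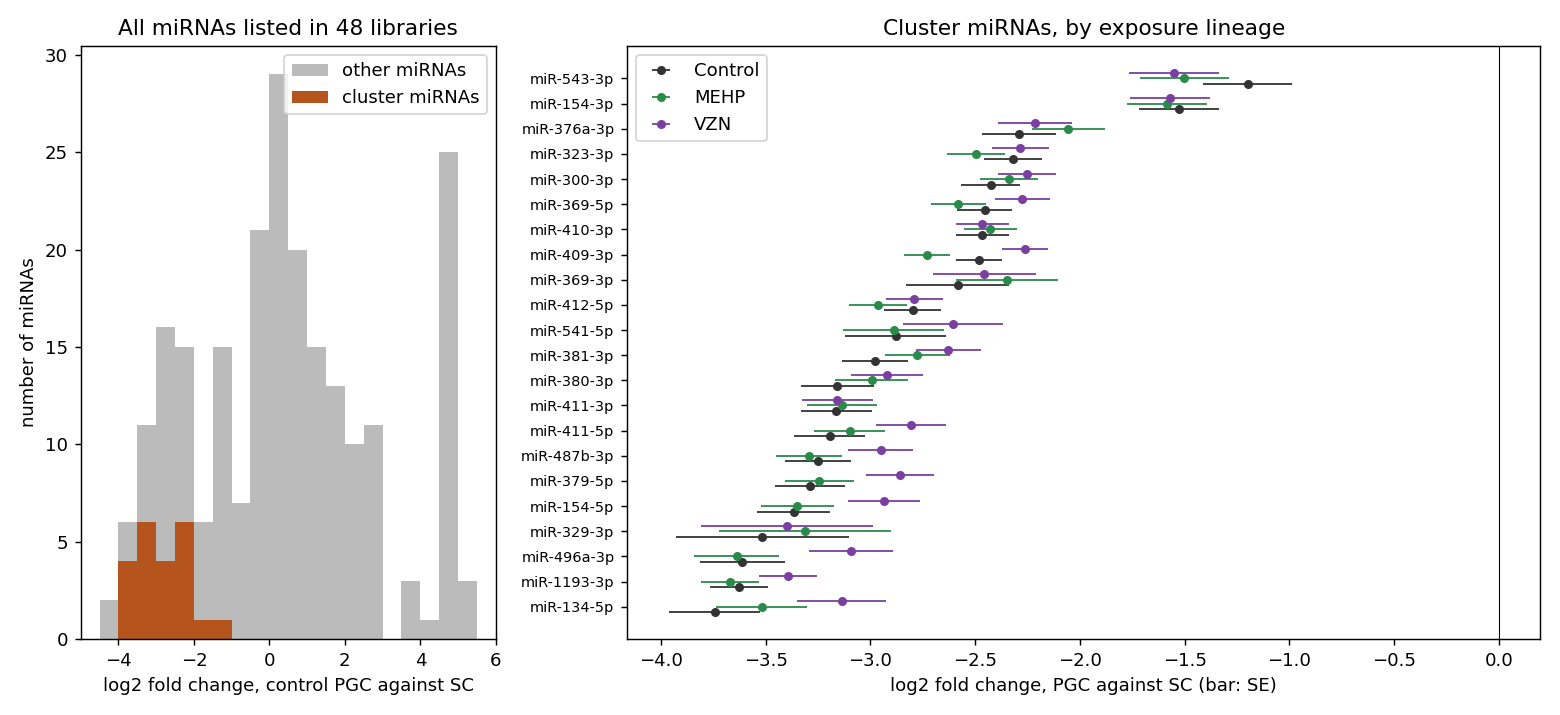
Left, number of miRNAs by log2 fold change of control germ cells against control somatic cells, for the 22 cluster miRNAs and the other miRNAs listed in all 48 libraries; right, the log2 fold change of each cluster miRNA with its SE in control, MEHP and VZN lineages. The estimates of all 22 miRNAs are below 0 in the 3 lineages, and miR-543-3p and miR-154-3p stand nearest to 0 in each lineage.

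Beside these values stand those of cells that could be carried over between the fractions. Of the 23 somatic marker miRNAs, 10 were listed in all 48 libraries, and 10 of 10 were lower in control PGC, with PGC means between 4.93% and 13.0% of the SC means and a median log2 fold change of -3.66. The PGC-to-SC ratio of the summed somatic markers was 7.76%, against 12.5% for the summed cluster. The erythroid marker miR-451a stood at 15.5% and the endothelial marker miR-126a at 24.3% of their SC means in control PGC. These markers are those listed in all 48 libraries; of the other erythroid markers, miR-144-3p was listed in 1, miR-486b-5p in 2 and miR-486b-3p in 0 of the 24 PGC libraries. In all, 7 of the 23 somatic markers and 27 of the 58 cluster members were blank in all 24 PGC libraries. How many of all 563 miRNAs were blank there was not counted, so these counts set neither list apart. Of 25 listed miRNAs from the rest of the Dlk1-Dio3 domain, 6 were in all 48 libraries and 6 of 6 were lower in PGC, with ratios of 8.91% to 18.6% and a median log2 fold change of -2.62. The part that somatic cells left in the germ cell fraction have in the PGC values was not tested.

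Among PGC libraries the cluster's share and the somatic marker share were high in the same libraries. The first VZN F3 library had the highest of both, 1.03% for the cluster and 4.0% for the markers. The first MEHP F3 library had 0.878% and 3.70%, and the first VZN F2Sy library 0.890% and 3.36%. At the low end of the cluster's share stood the first MEHP F2 library with 0.423% and 1.08% and the first VZN F1 library with 0.446% and 1.05%. The lowest marker share was in another library, the second of MEHP F1, with 0.537% for the cluster and 0.973% for the markers. The SC libraries varied less for their level, from 4.33% to 5.80% for the cluster and from 19.6% to 26.4% for the markers, and the library lowest in both was the first MEHP F3 library.

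**Figure D3:**
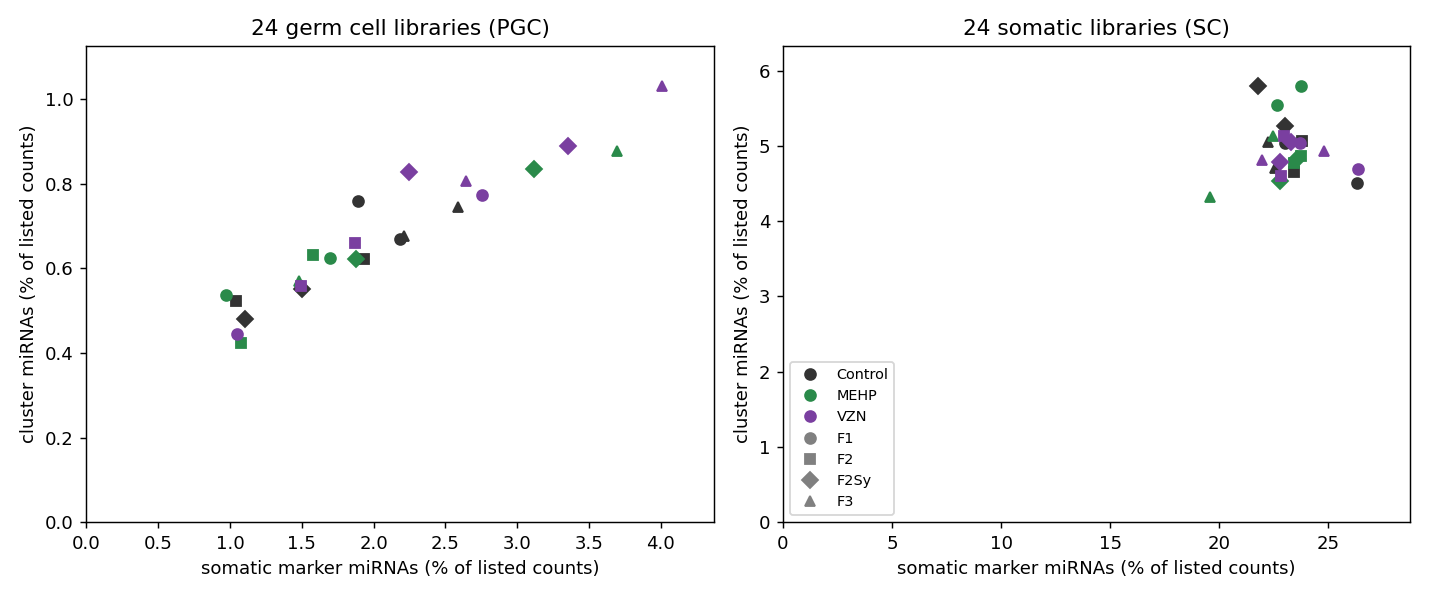
Summed cluster miRNAs against summed somatic marker miRNAs, both as percent of listed counts, for each of the 24 germ cell libraries (left) and 24 somatic libraries (right); colour gives the exposure and shape the generation class. The germ cell libraries lie between 0.423% and 1.03% on the vertical axis and between 0.973% and 4.0% on the horizontal one. The somatic libraries lie between 4.33% and 5.80% on the vertical axis and between 19.6% and 26.4% on the horizontal one.

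All 24 PGC libraries listed 22 of the 58 members and 303 of the 563 miRNAs, and all 24 SC libraries listed 47 and 355. The remaining 36 members were not listed throughout. In all 24 PGC libraries 27 were blank, and 16 of those 27 were listed in all 24 SC libraries. The most abundant of them in control SC were miR-666-3p with 205.2 CPM (SD 52.1), miR-379-3p with 184 (SD 25.0), miR-667-3p with 139 (SD 62.2), miR-299a-3p with 131 (SD 38.9) and miR-377-3p with 131 (SD 70.2), each with n = 8. In somatic cells 28 members had a higher level than any member blank throughout the PGC libraries. The smallest values that the control PGC libraries list were 18.7 to 30.5 CPM, so a PGC level under that would not be seen. Over all exposures these floors were 18.7 to 37.9 CPM in PGC and lower, 12.6 to 15.7 CPM, in SC. The remaining 9 members were listed in some PGC libraries. miR-382-5p, miR-495-3p and miR-376b-3p were in 23 of 24 each. Where listed, miR-382-5p ran from 45.1 to 172 CPM over the PGC libraries and from 591 to 1073 over the SC libraries, and miR-495-3p from 43.6 to 297 and from 139 to 1199, so the latter's ranges overlap. miR-376b-3p ran from 40.6 to 91.7 CPM in PGC and from 46.4 to 312 in SC. That overlap rests on the first MEHP F3 SC library, since the other 23 started at 142 CPM.

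The arms of a hairpin were compared within each library as the log2 ratio of the 5p to the 3p count, which needs no scaling between libraries. In 14 hairpins both arms were listed in all 24 SC libraries. Hairpins with an arm that some SC library does not list are left out, so the most unequal pairs can be missing. For example, miR-541-5p had a mean of 4504 CPM in control SC, and miR-541-3p 19.3 in the 7 of 8 libraries listing it. Among the 14, the 5p arm was the higher in control SC for 9 and the 3p arm for 5, and 13 of the 14 had the same arm on top in every SC library. The most unequal of these 14 were miR-380 with a mean log2 ratio of -5.87 (SD 0.30, n = 8), miR-379 with 5.48 (SD 0.11), miR-323 with -4.69 (SD 0.38) and miR-410 with -4.65 (SD 0.36). So the first hairpin of the run gave almost entirely its 5p arm and the last its 3p arm. The least unequal were miR-376b with 0.30 (SD 0.47), miR-485 with 0.97 (SD 0.58), miR-543 with -1.30 (SD 0.39) and miR-299a with -1.65 (SD 0.58); miR-376b was the one whose leading arm varied, from -0.23 to 1.34 over the 24 libraries.

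The 3 hairpins miR-154, miR-369 and miR-411 had both arms in all 48 libraries, which allowed the ratio to be compared between fractions. For miR-154 the control PGC libraries gave log2 ratios from -0.54 to 0.41 (median 0.13), and the control SC libraries from 1.29 to 2.40 (median 1.82). The arms were thus about equal in germ cells while 5p led in somatic cells, with no overlap. The difference was -1.85 (SE 0.18). A two-sided exact permutation test of 8 against 8 libraries gave p = 0.00016, the smallest that this test can give. Adjusted over the 9 comparisons of 3 hairpins and 3 exposures it was 0.00047. In MEHP lineages the difference was -1.83 (SE 0.28) and in VZN lineages -1.42 (SE 0.20), again without overlap and with that same exact p. The test took the 8 libraries as separate units, though they are 2 from each of 4 classes and the 2 may share a pool. The p-values of the arm tests may therefore be too small. The hairpin was singled out after the ratios were seen, and the difference restates that miR-154-5p has a log2 fold change of -3.37 between the control fractions and miR-154-3p one of -1.53. miR-154-3p is also 4 edits from miR-369-3p, which was 140 CPM in control PGC and 897 in control SC; whether reads of one were counted in the other was not tested.

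For miR-369 the control ratios ran from 1.66 to 2.53 in PGC and from 1.56 to 2.45 in SC, overlapping over nearly the whole range (difference 0.11, SE 0.14, exact permutation p = 0.461). In MEHP and VZN lineages the differences of -0.40 (SE 0.42, exact permutation p = 0.445) and 0.18 (SE 0.25, exact permutation p = 0.483) did not pass either. The MEHP value was -0.039 without the first MEHP F3 SC library, whose ratio was 4.94. miR-411 gave 3.04 to 3.39 in control PGC and 2.89 to 3.47 in control SC (difference -0.03, SE 0.09, exact permutation p = 0.726). Its MEHP difference was 0.04 (SE 0.08, exact permutation p = 0.650). Its VZN difference of 0.38 (SE 0.13) passed, with an exact permutation p = 0.0087 and 0.0196 adjusted over the 9, though the PGC range of 2.96 to 3.97 overlaps the SC range of 2.87 to 3.24. That test too took the 8 libraries as separate units. miR-411-3p is 2 edits from miR-379-3p, and whether reads of one were counted in the other was not tested.

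**Figure D4:**
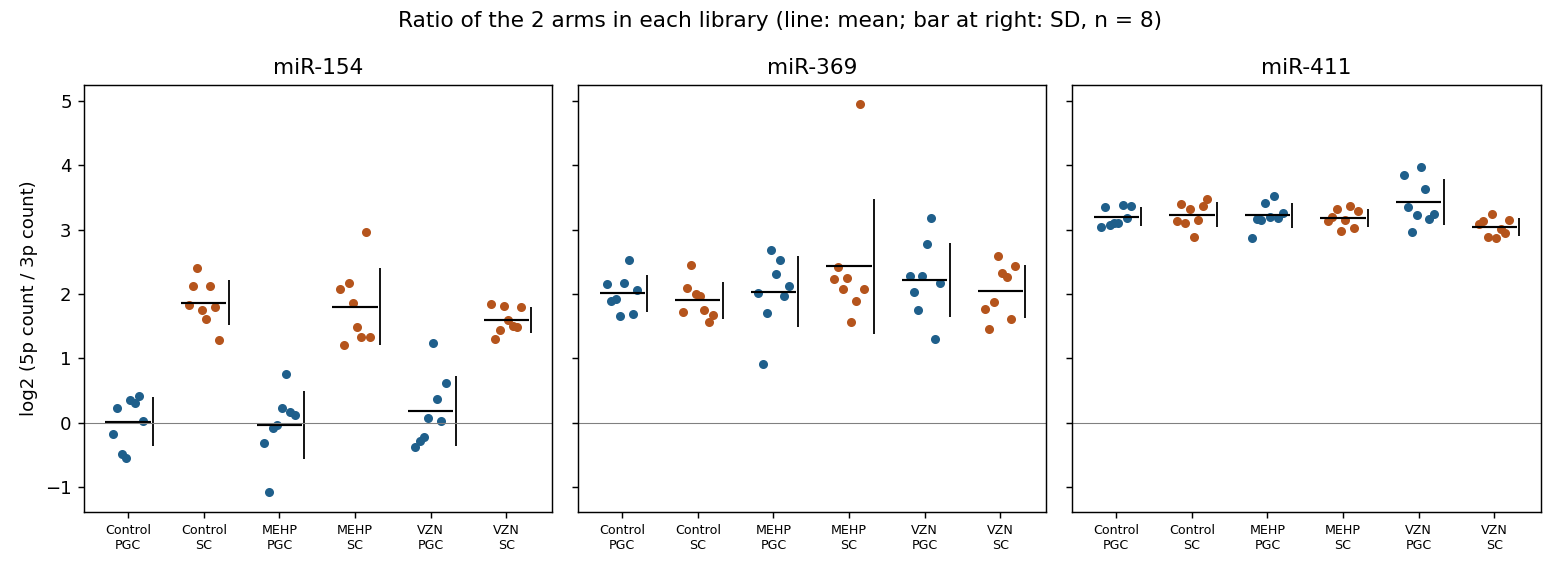
Log2 ratio of 5p to 3p counts in each library for miR-154, miR-369 and miR-411, by exposure and fraction (blue, germ cells; brown, somatic cells), with the mean as a line and the SD as a bar at right (n = 8). Germ and somatic points of miR-154 are separate in all 3 exposures, those of miR-369 and miR-411 overlap, and 1 MEHP somatic library stands at 4.94 for miR-369.

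Exposure was then compared with control within each fraction. No cluster miRNA passed by edgeR in any of these comparisons. The mean over the 4 classes, each class on its own, the difference between classes and the controls between classes gave 0 members called of 22 in PGC and of 47 in SC (edgeR's quasi-likelihood test with Benjamini-Hochberg adjustment over 303 and 355 miRNAs). Between 0 and 7 members a comparison were at an unadjusted p under 0.05. The 7 were for the difference between MEHP classes in SC, where 33 of all 355 miRNAs were. DESeq2 called 1 member in MEHP SC F3, where it called 1.69% of all miRNAs tested. It called 4 for the difference between MEHP classes in SC, where it called 3.38%. The background by edgeR was 0% called in all of these but VZN PGC F2Sy, where 0.33% of miRNAs, 1 of 303 and not a member, passed. With 2 libraries in a class group, an effect that misses the threshold is not shown to be absent, and the SE of a single class estimate had a median of 0.35 on the log2 scale in PGC and 0.31 in SC.

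Averaged over classes, MEHP germ cells differed from control by a median log2 fold change of 0.02 over the 22 members (0 at an unadjusted p under 0.05). VZN germ cells differed by a median of 0.22, with 21 of 22 estimates above 0 against a median of -0.0013 over all miRNAs tested. At an unadjusted p under 0.05 were 8 of all 303 miRNAs, 2 of them members. The 2 members were miR-134-5p (0.44, SE 0.19) and miR-379-5p (0.41, SE 0.19), both with an edgeR adjusted p = 0.935. These same VZN libraries had more somatic marker counts, 2.43% of the listed total on average against 1.81% in control PGC and 1.94% in MEHP PGC. In somatic cells the medians over 47 members were -0.02 for MEHP and -0.02 for VZN, with 0 members at an unadjusted p under 0.05 in each.

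The largest shift in germ cells was in VZN F2Sy. miR-379-5p was 1729 and 1196 CPM in the exposed libraries and 507 and 696 in the F2Sy controls, without overlap (log2 fold change 1.18, SE 0.37, edgeR adjusted p = 0.309). In VZN F3 it was 1463 and 1174 CPM against 799 and 853 (log2 fold change 0.59, SE 0.37, edgeR adjusted p = 0.981). miR-154-5p was 161 and 50.5 CPM in VZN F2Sy against 46.5 and 46.7, so its log2 fold change of 1.11 (SE 0.41; adjusted p = 0.426 by edgeR) came from 1 library. Without the second VZN F2Sy library it was 1.71 (edgeR adjusted p = 0.0018), a fit in which 1 exposed library is assumed to vary like the other groups and 5.28% of all miRNAs were called; without the first it was -0.12. The median over the 22 members in that class was 0.44, with 21 above 0, against a median of 0.08 over all 303 miRNAs. At an unadjusted p under 0.05 were 22 of the 303 miRNAs, 6 of them members. MEHP F2Sy germ cells, compared with the same F2Sy controls, had a median of 0.40 with 20 of 22 above 0. The median over all 303 miRNAs was 0.01. In these libraries miR-379-5p was 849 and 1287 CPM (log2 fold change 0.83, SE 0.37, edgeR adjusted p = 0.506). The F2Sy control libraries had 1.10% and 1.5% somatic marker counts, against 3.36% and 2.25% in VZN F2Sy and 1.88% and 3.12% in MEHP F2Sy; the part of these in the members' shift was not tested. In F1 germ cells the medians were below 0, -0.28 for MEHP and -0.18 for VZN. The class estimates in F2 and F3 germ cells had medians of -0.04 and 0.02 for MEHP and of 0.20 and 0.30 for VZN.

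In somatic cells the class medians were of either sign. The medians over 47 members in F1, F2, F2Sy and F3 were 0.16, 0.05, -0.33 and -0.01 for MEHP and 0.03, 0.00, -0.14 and -0.05 for VZN. In MEHP F2Sy 4 of 47 estimates were above 0, and the median over all 355 miRNAs was -0.05. The smallest p was for miR-409-3p with 936 and 1108 CPM against 1442 and 1624 (log2 fold change -0.55, SE 0.20, edgeR adjusted p = 0.629). The largest fall was that of miR-758-3p (log2 fold change -0.83, SE 0.32, edgeR adjusted p = 0.629). Erythroid marker miRNAs made up 1.83% and 8.62% of listed counts in those MEHP F2Sy libraries and 1.55% and 0.878% in their controls; their part in the shift was not tested. In MEHP F1 miR-412-5p was 482 and 576 CPM against 356 and 278 (log2 fold change 0.64, SE 0.22), and miR-410-5p was 73.9 and 97.9 against 46.7 and 52.5 (0.71, SE 0.24), both with an edgeR adjusted p = 0.937. In MEHP F3 the members moved apart, from -1.49 to 0.88. At an unadjusted p under 0.05 were 6 of the 47 members and 42 of all 355 miRNAs, a similar share. miR-485-5p was 641 and 412.5 CPM there against 284 and 310 (log2 fold change 0.88, SE 0.28), and miR-409-3p 2361 and 1499 against 1400.1 and 1211 (0.62, SE 0.20), both with an edgeR adjusted p = 0.293. In VZN F3 miR-329-3p was 1391 and 4969 CPM against 1319 and 1161 (log2 fold change 1.47, SE 0.68, edgeR adjusted p = 0.906), a gap set by 1 library.

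**Figure D5:**
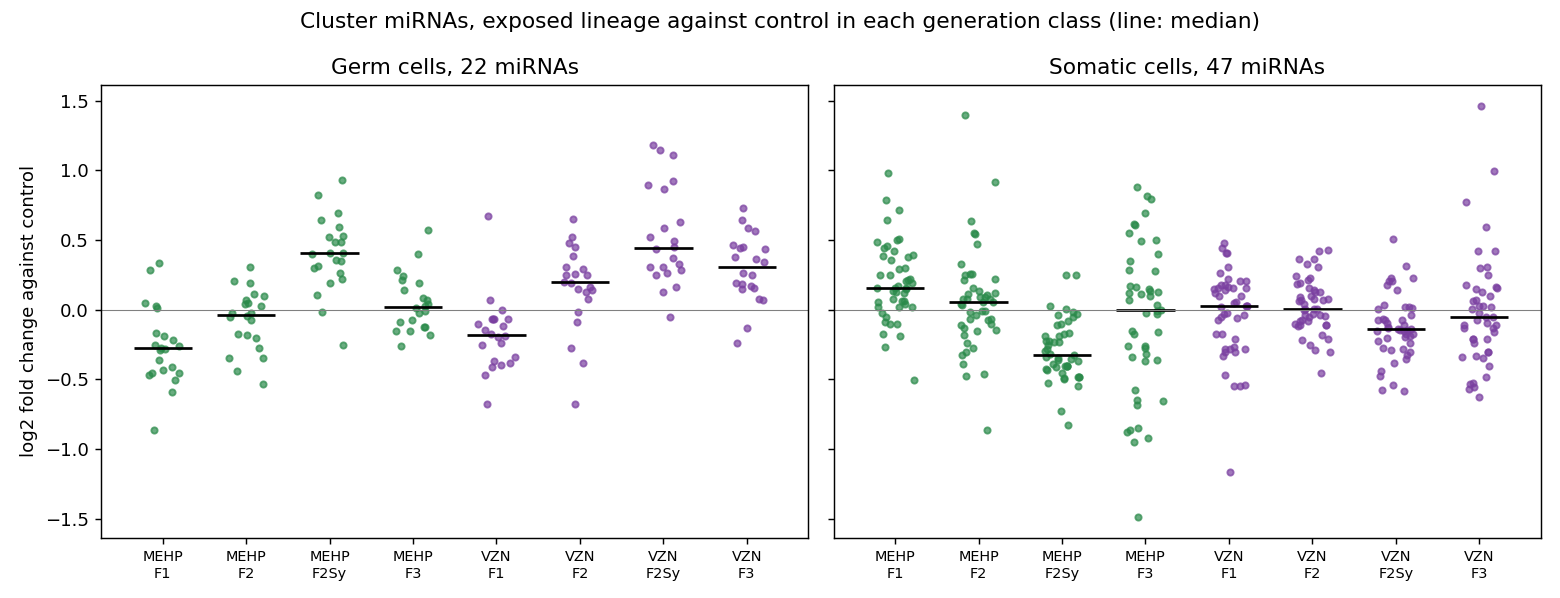
Log2 fold change of exposed against control lineage in each generation class for the 22 cluster miRNAs tested in germ cells (left) and the 47 tested in somatic cells (right), 1 point per miRNA, with the median as a line. No point passed the test; germ cell medians run from -0.28 in MEHP F1 to 0.44 in VZN F2Sy, and the widest spread, from -1.49 to 0.88, is in MEHP F3 somatic cells.

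The MEHP F3 spread came with 1 library that stood apart. In the first MEHP F3 SC library 14 of the 47 members were below and 9 above all 23 other SC libraries, and 24 were inside their range. Of the 14 low members 11 were from 3p arms, which are also the more common in the whole cluster (33 against 25 from 5p arms). The 14 come from the 47 members, in which 3p arms make up a larger share than in the whole cluster. An excess of 3p arms among the low members was not tested. The same count was not made for the other miRNAs, so it does not set the cluster apart in this library. miR-369-3p was 113 CPM there against 591 to 1228 in the others, while miR-369-5p, from the same hairpin, was 3469 CPM and inside the range of 2585 to 4276. miR-376b-3p was 46.4 CPM against 142 to 312, and miR-376a-3p 1542 against 2679 to 4782. Among the high members, miR-541-5p was 7057 CPM against 2798 to 5528 and miR-409-3p 2361 against 936 to 1896. Without the second MEHP F3 library, which leaves this one as the whole group and assumes that it varies like the others, 4 members were called higher and 10 lower in that class, where 22.8% of the 355 miRNAs were called; with both libraries, 0 were. The next library by this count, the second control F2Sy library, was at an extreme for 10 members, all of them highest values.

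Over the 24 SC libraries the members varied about as much as other miRNAs, with a median SD of 0.34 in log2 CPM against 0.36 over all 355 miRNAs listed in every SC library. The steadiest were miR-1193-3p (SD 0.16), miR-487b-3p (SD 0.17) and miR-369-5p (SD 0.19). The least steady were miR-377-3p (SD 0.92), miR-329-3p (SD 0.79) and miR-495-3p (SD 0.77). Per SC library, between 5 and 44 of the 47 members lay above their own SC median, with 5 in the first control F1 and 44 in the second control F2Sy library.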

How the data were processed

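The deposited file holds counts of mature miRNAs (canonical forms and isomiRs) per library in 48 libraries, and the authors' counts were used as deposited; Bowtie 1.3.1 and the genome build mm39 are named in the submitters' processing notes, while the sources used here give no rules for counting or adapter trimming. Of 27024 cells, 7089 are blank and none is 0. Since mm39 was not in hand, no coordinates are given, and RefSeq (GRCm38.p6) served for sequences and hairpin order only.

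Groups came from the sample labels. Fits used miRNAs listed in every library of the fit, which left 251 miRNAs over 48 libraries, 303 in PGC alone and 355 in SC alone, with edgeR 4.0.16 (R 4.3.3, filterByExpr, TMM, robust quasi-likelihood fit, Benjamini-Hochberg adjustment over all miRNAs fitted, threshold 0.05). Scripts were tested on simulated counts. Alternatives were DESeq2 1.42.0, other scalings, blanks filled in, other sets of libraries, a replicate term and each library left out. CPM divides by all listed counts of a library. Arm ratios were compared by exact permutation (scipy 1.17.1), a test added after the values were seen. Intervals and floors in counts cover counting error only.

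The members, the marker lists (germ, somatic, erythroid, endothelial, neural) and the list for the rest of the domain were chosen with earlier results of these data known. Of the neural list, 3 miRNAs were tested, 1 lower and 2 higher in control PGC. Members were named by rule: the 6 highest in control SC, the 4 largest and 4 smallest fraction differences, the 5 highest among those blank in PGC, the 3 listed in most PGC libraries, the smallest p in a comparison, the most and least unequal arm pairs, shared seeds, and the 3 most and least variable. Other names were chosen after their values were seen.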

Additional observations from a re-analysis of the deposited data

Results flagged for a closer look

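In 117 sets of 8 libraries (a member or arm ratio in 1 fraction and exposure), 10 held a library far from the other 7; chance flags about 1 in 20 such sets. The first MEHP F3 SC library was lowest for miR-376a-3p (1542 CPM, the others at 2862 to 4004), miR-380-3p (1004 CPM, the others at 1917 to 2469) and miR-379-3p (111 CPM, the others at 170.4 to 219.9), and highest for the miR-369 arm ratio (4.94 on the log2 scale, the others at 1.57 to 2.42). The second VZN F3 SC library was lowest for miR-380-3p (1732 CPM) and miR-379-3p (118 CPM) and highest for miR-329-3p (4969 CPM, the others at 628 to 1410). In germ cells the second control F2Sy library was highest for miR-329-3p (200.6 CPM), the first MEHP F3 library for miR-134-5p (108 CPM, the others at 26.6 to 51.0) and the first VZN F3 library for miR-376a-3p (1322 CPM, the others at 589 to 893). The latter 2 are also high in somatic marker counts (3.70% and 4.0% of listed counts).

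The miR-154 arm ratio differed between germ and somatic cells, by -1.85 in control, -1.83 in MEHP and -1.42 in VZN lineages on the log2 scale. The miR-411 arm ratio differed by 0.38 in VZN lineages.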

How the results depend on the processing

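The 22 members tested between fractions were lower in PGC, with the same call, in all 58 alternatives of the control contrast; the log2 fold change of miR-543-3p ran from -1.48 to -1.07. Filling blanks with 0 made 58 members testable, of which 53, 52 and 51 were lower in PGC in control, MEHP and VZN lineages (42.1%, 41.9% and 40.9% of all miRNAs). Since 27 of the 58 are blank in all 24 PGC libraries, that fill sets their direction in advance, and these counts are no added support. Filling blanks with the smallest listed count gave 47, 49 and 47 lower (39.1%, 38.9% and 38.2% of all) and 8, 8 and 8 higher (47.8%, 49.4% and 47.4%), by construction of the fill. Scaling by library size alone or by non-members moved the median of all miRNAs by up to 0.11 and 0.28 in log2. For exposure, DESeq2 called 1 member higher in MEHP SC F3 (1.69% of all miRNAs called) and 4 that differed between MEHP classes in SC (3.38%). Leaving out each library gave 0 to 1 member higher in VZN PGC F2Sy, 0 to 1 differing between VZN classes in PGC and 0 to 1 in the VZN interaction, the value of 1 coming without the second VZN F2Sy PGC library, where the remaining one is assumed to vary like other groups and 5.28%, 2.31% and 1.59% of all miRNAs were called. Without the second MEHP F3 SC library, where the first stands alone and is assumed to vary like other groups, 4 members were higher and 10 lower in MEHP SC F3, 9 differed between MEHP SC classes and 1 was lower in the MEHP SC mean (22.8%, 12.7% and 1.41% of all miRNAs called); the other omissions gave 0. Without both libraries farthest from the rest, chosen after seeing the data, 1 member was called in VZN PGC F2Sy, 1 between VZN PGC classes and 1 in the VZN interaction (5.28%, 2.31% and 1.99% of all). Single estimates turned sign without the first library of their exposed group and, over all omissions, ranged from -0.37 to 0.91 (miR-134-5p, MEHP PGC F3), from -0.041 to 0.53 (miR-1193-3p, MEHP PGC F3), from -2.10 to 0.035 (miR-543-3p, VZN PGC F1) and from -0.12 to 1.71 (miR-154-5p, VZN PGC F2Sy). The miR-411 arm difference ranged from -0.078 to 0.0054 in control and from -0.0041 to 0.089 in MEHP lineages when 1 library was left out; that of miR-369 ranged from 0.034 to 0.19 in control, from -0.52 to -0.039 in MEHP and from 0.045 to 0.31 in VZN lineages. The cluster's share of control SC was 4.56% with the 22 members listed throughout. The cause was not tested in these cases. Whether replicate numbers pair the samples is not known. Same-numbered germ and somatic libraries correlated at -0.46 to 0.53, over 0.1 in 4 of 12 pairs, which cannot settle it. A replicate block left 22 of 22 members lower in PGC and changed no call. Precision is limited by the 2 libraries in a group and by the blanks, the smallest listed count of a library being between 110 and 194.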
